A study of Mus musculus with 8 samples.

Results

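The amino acid and peptide transporter genes Slc1a1, Slc3a1, Slc3a2, Slc6a14, Slc6a19, Slc7a7, Slc7a8, Slc7a9, Slc7a15 and Slc15a1 were followed in goblet cells sorted from the colon and from the small intestine of C57Bl/6 mice. They were chosen by name, and all probes carrying one of these symbols were taken. Of the 10 genes, 9 had a named probe, together 15 of the 25697 probes of the array. Slc3a1 had none and was not analysed here. The 8 samples were 4 of colon goblet cells and 4 of small-intestinal goblet cells, 1 Illumina expression array each. All cells came from epithelium released with EDTA and were sorted as negative for CD45 and CD24, positive for cytokeratin 18 and binding the lectin UEA-I. The labels used here name no age or treatment, and do not say whether the samples were separate animals or pools, so a p-value here covers only how far the 4 samples of a segment lay apart, and that spread may be technical. All values are normalized log2 intensities unless stated, and every difference is colon minus small intestine, so that a negative value means lower in colon.

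Dietary protein reaches the intestinal epithelium as free amino acids and as short peptides. Carriers in the brush border, driven by sodium or protons or working by exchange, bring these into the cell, and carriers of the basolateral membrane pass them on to the blood. Several of the exchangers are heteromers of a light chain from the Slc7 family, which moves the amino acid, and a heavy chain from the Slc3 family, which brings it to the membrane. Such carriers are best known from absorptive enterocytes, and goblet cells are known for mucus secretion rather than uptake.

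The sorted samples carried goblet cell transcripts together with those of other cell types. Of 16 tested goblet cell markers, 11 were called higher in colon and 0 lower in colon, and all 16 were above background on all 4 colon arrays and 14 on all 4 small-intestinal arrays. Best2 and Retnlb, counted as higher, had a detectable signal in colon only, so these 2 could hardly be tested without differing. Tff3, a trefoil peptide of mucus, was among the 5 not called. Over all genes tested, 13.1% were called higher in colon and 9.30% lower. The summed linear level of the 16 tested small-intestinal enterocyte markers was 3115 to 12003 units on colon arrays and 49924 to 75007 on small-intestinal arrays. For 7 Paneth cell markers, it was 991 to 10739 on colon arrays and 70412 to 81745 on small-intestinal arrays, and for 6 lymphocyte markers 249 to 581 on colon arrays and 1216 to 2328 on small-intestinal arrays. For 4 stem cell markers, it was 429 to 590 on colon arrays and 4140 to 5852 on small-intestinal arrays. For 10 enteroendocrine cell markers, it was 3570 to 6218 on colon arrays and 6553 to 14167 on small-intestinal arrays. For 10 colonocyte markers, it was 22985 to 24954 on colon arrays and 3546 to 5061 on small-intestinal arrays. Single bright genes can carry such a sum. Of the 4 stem cell markers, 2 were called lower in colon and 2 were not called. Without colon arrays 1 and 4, Olfm4 had a log2 fold change of -7.15. Lgr5, Ascl2 and Axin2, at 0.43, -0.19 and -1.52, were then not called. Of the 10 enteroendocrine cell markers, 1 was called higher in colon, 4 lower and 5 were not called. Cck, counted as lower, had a detectable signal in small intestine only, so the same limit holds for it. The part of such cells in the transporter differences was not tested, and in sorted bulk samples a change in the number of cells of a type and a change in RNA per cell cannot be told apart.

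Of the 9 measured transporter genes, 8 were lower in colon than in small intestine and 1, Slc6a14, was higher. Each gene was read from its brightest tested probe and called at a limma adjusted p below 0.05 over all probes. Of all 9080 genes tested, 22.4% were called, 13.1% as higher in colon and 9.30% as higher in small intestine. The median of the 9 log2 fold changes was -1.94, against 0.07 over all genes tested. By probe, 13 of the 15 were called lower in colon, 1 was called higher in colon and 1, a second probe of Slc1a1, did not pass. Of all 13618 probes tested, 21.4% were called, 11.6% as higher in colon and 9.83% as higher in small intestine. The values of the segments did not overlap for any of the 9 genes. Over all genes tested, 26.2% had no overlap, 15.7% with colon on top and 10.4% with small intestine on top. The filter asked for a signal above background on at least 4 of the 8 arrays. Slc6a14 and Slc7a8 met it through 1 segment alone, and Slc6a19 and Slc7a15 had all 4 small-intestinal arrays and 2 colon arrays above background. These 4 genes could hardly pass without differing, so the count by itself is a description.

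**Figure D1:**
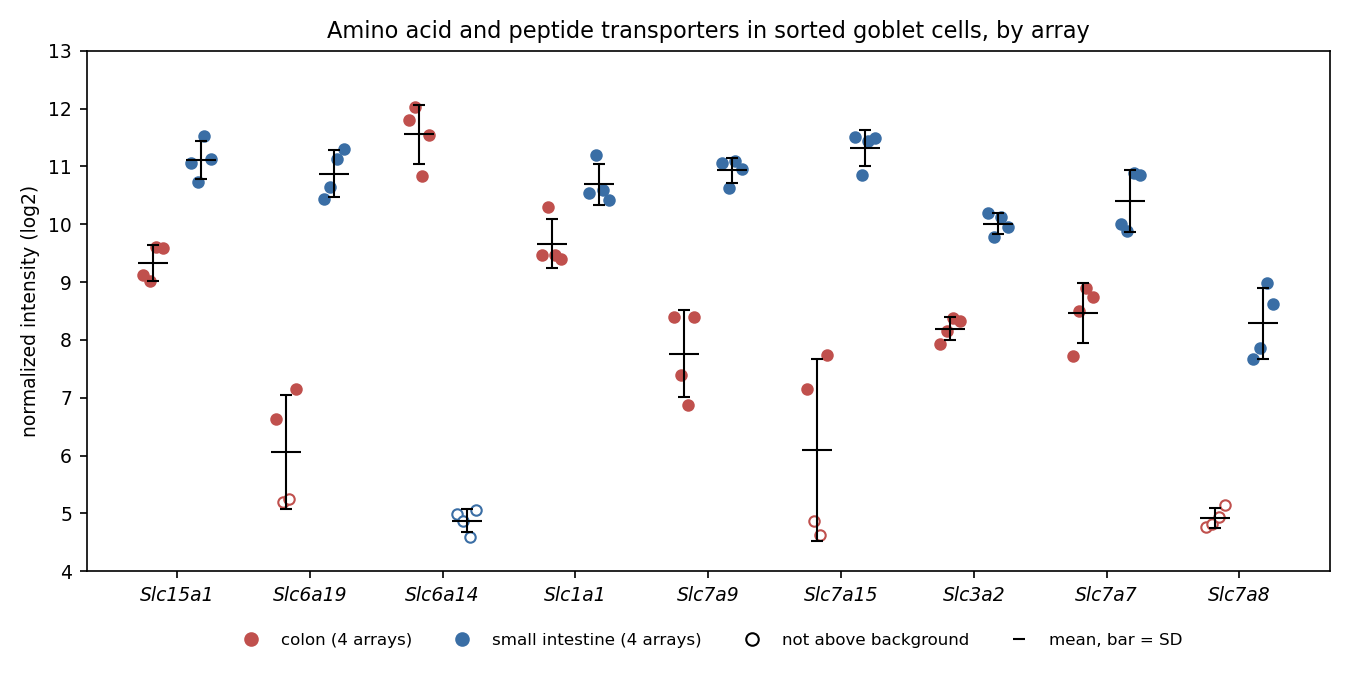
Normalized log2 intensity (vertical axis) of the 9 measured transporter genes on each colon array (red, left) and small-intestinal array (blue, right); bars are mean and SD of 4 arrays, and open points are not above background. The 4 and 4 points of each gene are apart, with colon on top for Slc6a14 only, and levels are not comparable between genes because each is read by its own probe.

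The sequences before the transcription starts of Slc6a14, Slc7a15 and Slc7a9 are shown because Slc6a14 is the gene higher in colon, and the other 2 are genes lower in colon whose windows hold a searched motif. The 250 bases before each start were taken from RefSeq (GRCm38.p6), at the first start listed for each gene, and are printed 5′ to 3′ on the strand of the gene. The capitals mark matches to the GATA-type motif AGATAA or the Cdx-type motif TTTATNG, on either strand. GATA and Cdx factors are known regulators of intestinal genes.
Slc6a14 (chrX:21714650-21714899, plus strand): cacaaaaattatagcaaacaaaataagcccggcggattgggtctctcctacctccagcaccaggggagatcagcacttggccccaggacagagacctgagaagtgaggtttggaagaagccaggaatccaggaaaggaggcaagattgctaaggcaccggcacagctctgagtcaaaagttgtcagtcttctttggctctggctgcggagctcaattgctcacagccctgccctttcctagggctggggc
Slc7a15 (chr12:8599067-8599316, minus strand): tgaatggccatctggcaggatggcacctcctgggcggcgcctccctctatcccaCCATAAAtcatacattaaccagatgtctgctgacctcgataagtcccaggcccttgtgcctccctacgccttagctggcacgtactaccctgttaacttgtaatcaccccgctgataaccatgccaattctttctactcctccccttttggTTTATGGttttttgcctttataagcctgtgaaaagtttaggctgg
Slc7a9 (chr7:35448842-35449091, plus strand): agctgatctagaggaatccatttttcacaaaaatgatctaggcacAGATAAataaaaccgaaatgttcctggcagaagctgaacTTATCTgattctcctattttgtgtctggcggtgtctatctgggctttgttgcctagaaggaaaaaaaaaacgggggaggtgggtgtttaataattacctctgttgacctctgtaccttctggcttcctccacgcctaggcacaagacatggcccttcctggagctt
The Slc7a9 window held 2 GATA-type matches and the Slc7a15 window 2 Cdx-type matches, none overlapping another. For both genes, start 2 of the listed starts held no match to any motif searched. Over all 32851 promoter windows of this length, 9.99% held the GATA-type motif and 9.81% the Cdx-type motif. The windows of Slc6a14, Slc15a1, Slc6a19, Slc1a1, Slc3a2 and Slc7a8 held neither of these motifs. They also held neither the HNF4-type motif CAAAGTCCA (0.384% of all windows) nor the HNF1-type motif (0.371%). The amino acid response element TGATGNAA, known as the site through which amino acid shortage raises transcription, was found once at the first listed start of Slc7a7 and in 3.45% of all windows. Of the other listed starts of Slc7a7, start 2 held 1 such match and 1 GATA-type match. Start 3 held 1 GATA-type match, and starts 4 and 5 held no match. A match describes the letters only, and the arrays do not say which start was used.

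Slc15a1 encodes the proton-driven carrier of di- and tripeptides in the brush border. It was at 9.12, 9.02, 9.60 and 9.60 on colon arrays 1 to 4, and at 11.05, 10.74, 11.53 and 11.13 on small-intestinal arrays 1 to 4. All 4 colon values lay below all 4 small-intestinal values, and both segments were above background throughout. The mean was 9.33 ± 0.31 in colon and 11.11 ± 0.32 in small intestine (SD, n = 4 each; log2 fold change -1.78, SE 0.23, limma adjusted p = 0.000239), a 3.43-fold lower level in colon. Among the other genes tested, the one whose centred profile over the 8 arrays lay nearest to that of Slc15a1 was Slc3a2, with a root mean square difference of 0.19 log2. Fam151a and Sult2b1 followed, each at 0.21, where the median over all genes was 1.02. Fam151a was above background on no colon array, so its closeness rests in part on values at the floor.

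The sodium-dependent carriers of the brush border went in both directions. Slc6a19, the main carrier of neutral amino acids in enterocytes, was at 6.63, 5.20, 5.25 and 7.15 on colon arrays 1 to 4, and at 10.44, 10.64, 11.12 and 11.30 on small-intestinal arrays 1 to 4. On colon arrays 2 and 3 the signal was not above background, and the other 2 colon arrays were the higher ones. The mean was 6.06 ± 0.98 in colon and 10.88 ± 0.40 in small intestine (log2 fold change -4.82, SE 0.43, limma adjusted p = 1.44e-05). Since 2 colon arrays lay at the floor, the size depended on the background correction, and was -3.28 without it.

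Slc6a14 carries both neutral and cationic amino acids into the cell, driven by sodium and chloride, and is known from the distal gut. It was at 11.80, 12.03, 10.84 and 11.54 on colon arrays 1 to 4. On the small-intestinal arrays it was at 4.99, 4.87, 4.60 and 5.05, none of them above background. The deposited signals, before any correction, were 1663 to 4434 units on colon arrays and 133 to 179 units on small-intestinal arrays. Colon exceeded small intestine at least 71.3-fold (limma adjusted p = 7.53e-08), with the small-intestinal level given only as a bound. This and the other bounds hold under the background correction used. Without it, the measured log2 fold change of Slc6a14 was 4.35, against 6.68 with it. Colon array 3 was the lowest of the 4, and the SD was 0.52 in colon, against a median SD of 0.30 within colon over all genes. The 3 genes nearest to it in profile were Wfdc2, Sult1a1 and Sycn, with root mean square differences of 0.41, 0.46 and 0.49 log2 over the 8 arrays, where the median over all genes was 3.34. This closeness rests in part on floor values, those of Slc6a14 in small intestine. Sycn, too, had a detectable signal on only 2 of the 4 small-intestinal arrays. Sult1a1 is also 1 of the 10 colonocyte markers, and the part of colonocyte RNA in the Slc6a14 values was not tested.

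Slc1a1, a sodium-dependent carrier of glutamate and aspartate, showed the smallest of the 9 differences. Its brightest probe was at 9.48, 10.30, 9.46 and 9.41 on colon arrays 1 to 4, and at 10.55, 11.20, 10.59 and 10.41 on small-intestinal arrays 1 to 4. Colon array 2 stood above the other 3 colon arrays and just under the lowest small-intestinal value. The log2 fold change was -1.03 (SE 0.26, limma adjusted p = 0.0158). The second probe gave -0.68 (SE 0.24, limma adjusted p = 0.0700) with values that overlapped between the segments, and did not pass. The call of the brightest probe was lost without colon array 4 (log2 fold change -0.94, limma adjusted p = 0.0511) and without colon arrays 1 and 4 together (-0.81, adjusted p = 0.172).

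The exchangers of the brush border were far lower in colon. Slc7a9, the light chain of the exchanger that takes up cystine and cationic amino acids, was measured by 3 probes. Its brightest probe was at 8.39, 7.40, 6.87 and 8.39 on colon arrays 1 to 4, and at 11.07, 10.62, 11.09 and 10.96 on small-intestinal arrays 1 to 4. The small-intestinal arrays lay within a narrow range, while colon arrays 1 and 4 stood above colon arrays 2 and 3. The log2 fold change was -3.17 (SE 0.33, limma adjusted p = 5.14e-05). The other probes gave -3.07 (SE 0.23) and -2.78 (SE 0.52), both called lower in colon (limma adjusted p = 4.6e-06 and 0.00268). The dimmest of the 3 was above background on 0 of 4 colon arrays, for which the bound was at least 5.07-fold lower in colon. Unlike the brightest probe, it varied among small-intestinal arrays, at 6.17, 7.52, 9.07 and 8.57. The heavy chain partner of Slc7a9 is encoded by Slc3a1, for which no value was available here.

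Slc7a15 is a light chain of rodents that prefers aromatic amino acids. Its brightest probe was at 7.14, 4.86, 4.63 and 7.74 on colon arrays 1 to 4, and at 11.51, 10.86, 11.44 and 11.49 on small-intestinal arrays 1 to 4. Colon arrays 1 and 4 were above background and colon arrays 2 and 3 were not. The log2 fold change was -5.23 (SE 0.62, limma adjusted p = 0.000129). With 2 colon arrays at the floor, its size depended on the background correction, and was -3.65 without it. Its second probe was above background on 0 colon arrays and at 9.68, 8.81, 10.23 and 10.38 on small-intestinal arrays 1 to 4. That probe was at least 19.5-fold lower in colon (limma adjusted p = 2.08e-06).

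Carriers known from the basolateral membrane were also lower in colon. Slc3a2, the heavy chain shared by several light chains, was at 7.93, 8.15, 8.38 and 8.32 on colon arrays 1 to 4, and at 10.20, 9.77, 10.12 and 9.96 on small-intestinal arrays 1 to 4. Both segments were tight, with an SD of 0.20 in colon and 0.19 in small intestine. The log2 fold change was -1.82 (SE 0.19, limma adjusted p = 4.87e-05), or 3.52-fold lower in colon.

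Slc7a7, the light chain that exports cationic amino acids in exchange for neutral ones, was at 7.72, 8.50, 8.90 and 8.74 on colon arrays 1 to 4, and at 10.01, 9.88, 10.88 and 10.85 on small-intestinal arrays 1 to 4. Colon array 1 was the lowest, and small-intestinal arrays 3 and 4 were the highest. The log2 fold change was -1.94 (SE 0.32, limma adjusted p = 0.00128), and a second probe gave -1.91 (SE 0.32, limma adjusted p = 0.00129). Slc7a8, a light chain that exchanges neutral amino acids, was at 4.77, 4.82, 4.95 and 5.15 on colon arrays 1 to 4, none of them above background. On small-intestinal arrays 1 to 4 it was at 7.68, 7.86, 8.98 and 8.63, with arrays 3 and 4 again the highest. It was at least 6.95-fold lower in colon (limma adjusted p = 1.09e-05), and its second probe at least 4.71-fold lower (limma adjusted p = 1.22e-05). Without background correction, the measured log2 fold change of the first was -1.53, against -3.37 with it, so the bound does not carry over to that setting.

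Whether light chains and their shared heavy chain differed in the size of their change was tested on the log2 difference light minus heavy on each array. For Slc7a7 and Slc3a2, this difference was 0.27 ± 0.33 in colon and 0.39 ± 0.52 in small intestine (SD, n = 4 each). The segments differed by -0.13 (exact permutation test, two-sided, p = 0.657, Benjamini-Hochberg adjusted over 2 pairs 0.657), and the values overlapped. For Slc7a8 and Slc3a2, it was -3.28 ± 0.13 in colon and -1.73 ± 0.62 in small intestine. The segments differed by -1.55 (exact permutation test, two-sided, p = 0.0286, the smallest p possible; adjusted 0.0571), which did not pass after adjustment. Slc7a8 was above background on no colon array, so the size of this difference was set by the background correction. It was -0.09 without correction and -2.23 with the authors' processed values, neither of which passed the exact permutation test after adjustment, and no size is read from it.

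On the colon arrays, the brightest probes of 3 transporters were uneven in the same way as several lists of cell type markers. Relative to the small-intestinal mean, Slc7a15 stood at -4.18, -6.46, -6.69 and -3.58 on colon arrays 1 to 4. Slc6a19 stood at -4.25, -5.67, -5.62 and -3.72, and Slc7a9 at -2.54, -3.53, -4.06 and -2.54. Slc7a15 and Slc6a19 were not above background on colon arrays 2 and 3, so their values there lie at the floor. For all 3 genes, colon arrays 1 and 4 held the highest values by the brightest probe. The second probe of Slc7a9 did not share this order, at 6.94, 6.29, 7.14 and 7.01 on colon arrays 1 to 4. Nor did the second probe of Slc7a15, at 4.58, 4.52, 4.62 and 5.18, none of them above background. The median of the 16 enterocyte markers stood at -3.82, -5.64, -5.56 and -2.78. That of the 7 Paneth cell markers stood at -2.94, -6.17, -7.81 and -2.88. Smaller shifts in the same order were seen for enteroendocrine cell markers, at -0.48, -1.60, -1.26 and -0.39. The lymphocyte markers had it too, at -1.71, -2.46, -2.05 and -1.78. The medians of goblet, colonocyte, stem, tuft and stromal markers did not show this order. Of the enterocyte markers, 2, Fabp1 and Akp3, were above background on no colon array, as was 1 Paneth cell marker, Habp2. Of the other transporters lower in colon, Slc3a2 ranged from -2.08 to -1.63 and Slc15a1 from -2.10 to -1.51. Slc7a7 ranged from -2.69 to -1.51 with colon array 1 lowest, and Slc1a1 from -1.28 to -0.39 with colon array 2 highest. Slc7a8 was above background on no colon array, so its colon values could not show such an order. Without colon arrays 1 and 4, the log2 fold change was -6.58 for Slc7a15, -5.65 for Slc6a19 and -3.80 for Slc7a9. It was -1.75 for Slc3a2 and -1.80 for Slc15a1. For Slc7a15 and Slc6a19, no colon array left was above background, so these sizes rest on the floor and on the background correction. The part of enterocyte, Paneth cell, enteroendocrine cell or lymphocyte RNA in these values was not tested. Paneth cells are known to carry CD24, and the gate took cells negative for it. Even so, the 7 Paneth cell markers summed to 70412 to 81745 linear units in small intestine and 991 to 10739 in colon. The source of this signal was not tested.

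**Figure D2:**
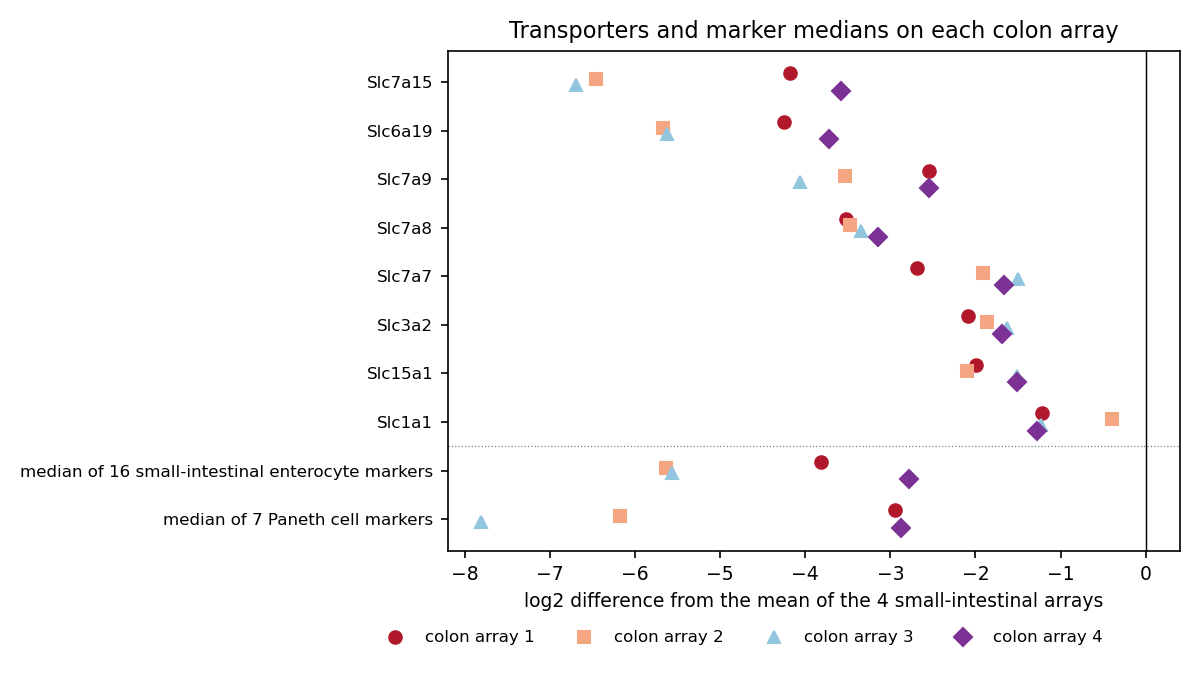
Log2 difference of each colon array from the mean of the 4 small-intestinal arrays (horizontal axis) for the 8 transporters lower in colon and for the medians of 2 marker lists, with 1 symbol for each colon array. Colon arrays 1 and 4 lie to the right of arrays 2 and 3 for Slc7a15, Slc6a19, Slc7a9 and both marker lists, while they do not lie apart in this way for Slc3a2, Slc15a1, Slc7a7 and Slc1a1. The colon values of Slc7a8 are all at the floor, as are those of Slc7a15 and Slc6a19 on colon arrays 2 and 3.

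Other carriers of amino acids and peptides moved in both directions. Of 49 listed genes, 45 had a named probe and 19 passed the filter. Of these 19, 4 were higher in colon, 5 were lower in colon and 10 were not called. The shares were 21.1% higher and 26.3% lower, against 13.1% and 9.30% of all genes tested. Slc1a3, counted as lower, was above background on 4 small-intestinal arrays and 1 colon array. It could hardly pass without differing, so the count is a description. The median log2 fold change of the 19 genes was -0.12, against 0.07 over all genes tested. Slc1a4, a carrier of small neutral amino acids, was at 9.10 ± 0.38 in colon and 7.34 ± 0.14 in small intestine (log2 fold change 1.76, SE 0.22, limma adjusted p = 0.000172). Slc7a4, a relative of the cationic amino acid carriers, was at 8.26 ± 0.34 in colon and 6.98 ± 0.44 in small intestine (log2 fold change 1.28, SE 0.26, limma adjusted p = 0.00498). Slc43a2, a carrier of branched-chain and other large neutral amino acids, was at 6.03 ± 0.20 in colon and 10.75 ± 0.26 in small intestine (log2 fold change -4.72, SE 0.20, limma adjusted p = 1.05e-07). Slc6a20a, a carrier of proline, was at 6.22 ± 0.36 in colon and 9.82 ± 0.31 in small intestine (log2 fold change -3.60, SE 0.24, limma adjusted p = 2.29e-06). Without colon arrays 1 and 4, 2 were higher in colon and 3 lower, the calls of Slc38a2, Slc6a9, Slc36a1 and Slc1a3 being lost, genes named here after their values were seen. Their log2 fold changes without those arrays were 1.07, 1.27, -1.32 and -1.48, against 1.07, 1.05, -1.55 and -1.83 with all arrays, all in the same direction. The call of Slc6a9 was also lost without small-intestinal array 2, 3 or 4 (adjusted p from 0.0523 to 0.0660).

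**Figure D3:**
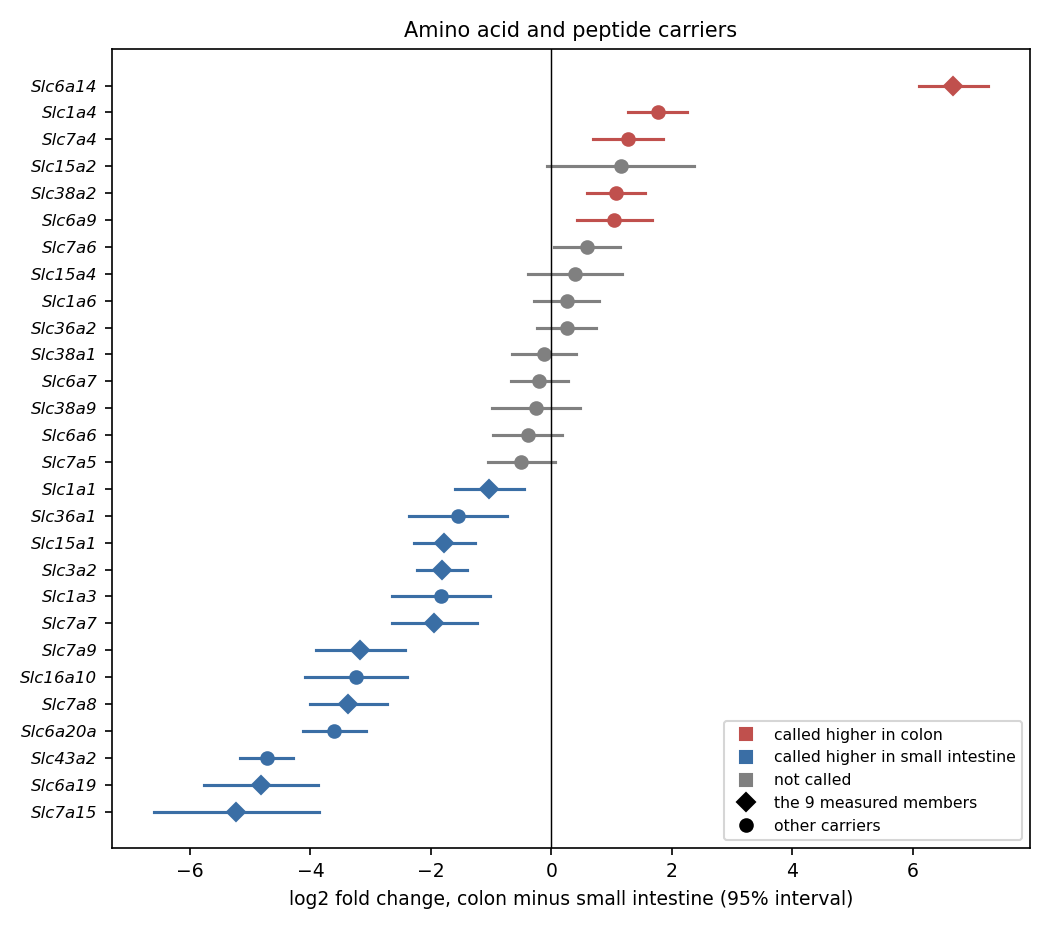
Log2 fold change, colon minus small intestine, with its 95% limma interval (horizontal axis) for the 9 measured transporters (diamonds) and the 19 other carriers that passed the filter (circles). Slc6a14 lies far to the right of the other carriers, and Slc7a15, Slc6a19 and Slc43a2 lie farthest to the left; the points of Slc6a14 and Slc7a8 rest on 1 segment at the floor.

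Peptidases were mostly lower in colon. Of 14 tested peptidases of the brush border and cytosol, 12 were lower in colon, 0 were higher and 2, Mep1a and Dpep1, were not called, with a median of -2.74. Of all genes tested, 9.30% were called lower in colon. Mme and Lap3 were above background on 0 colon arrays and met the filter through the small intestine alone. Tmprss15 was above background on 1 colon array. These genes could hardly pass without differing, so the count is a description. Anpep, aminopeptidase N, was at 6.85 ± 2.07 in colon and 12.43 ± 0.36 in small intestine (log2 fold change -5.58, SE 0.80, limma adjusted p = 0.000497). It moved to -4.84 without colon array 3 and -6.48 without colon array 4. Enpep, which removes acidic residues, had a log2 fold change of -4.99 (SE 0.30, limma adjusted p = 1.33e-06). Of 6 tested partners and ion-gradient genes, Slc9a3r2, a scaffold of brush border exchangers, was higher in colon. By the colon mean, it was at least 2.86-fold over a small-intestinal level not above background. That bound rests in part on colon array 3, at 8.36, where the other colon arrays were at 6.30 to 6.59. Without colon array 3, the log2 fold change was 1.23, against 1.71. Slc9a3r2 met the filter through colon alone and could hardly pass without differing. Pdzk1, a scaffold that binds several brush border carriers, was lower (log2 fold change -4.45, SE 0.46, limma adjusted p = 4.23e-05). Slc9a3r1, a further scaffold of this kind, was lower by less (log2 fold change -0.85, SE 0.18, limma adjusted p = 0.00663).

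Of 22 tested enzymes of amino acid metabolism, 4 were higher in colon, 9 were lower and 9 were not called, with a median of -0.50. These shares were 18.2% higher and 40.9% lower, against 13.1% and 9.30% of all genes tested. Cbs, counted as higher, was above background on no small-intestinal array, met the filter through colon alone and could hardly pass without differing. Bcat2, counted as higher, had an adjusted p of 0.0477 that was lost on leaving out any 1 array but colon array 1 (adjusted p from 0.0573 to 0.113). Psat1, counted as lower, was lost without small-intestinal array 2 or 3 (adjusted p 0.0581 and 0.0571), and both are named after their values were seen. Glul, which makes glutamine from glutamate, was at 10.54 ± 0.21 in colon and 7.63 ± 0.27 in small intestine (log2 fold change 2.91, SE 0.20, limma adjusted p = 3.31e-06). Gpt2, the mitochondrial alanine aminotransferase, had a log2 fold change of 2.28 (SE 0.25, limma adjusted p = 6.28e-05). Cps1 and Arg2, mitochondrial enzymes of citrulline and ornithine production, were lower in colon. For Cps1, the log2 fold change was -4.87 (SE 0.31, limma adjusted p = 1.87e-06), and for Arg2 it was -3.66 (SE 0.47, limma adjusted p = 0.000218). Like the brightest probe of Slc7a9, Arg2 stood higher on colon arrays 1 and 4, at 8.06 and 8.09, than on colon arrays 2 and 3, at 6.63 and 5.77. Cps1 did too, at 6.59 and 7.16 against 6.06 and 5.99, as did Anpep, Enpep and Pdzk1. Glud1 and Pepd, also lower in colon, did not, so the order is shared by part of the genes lower in colon. Of 9 tested genes of the response to amino acid shortage, 2 were higher in colon, 1 was lower and 6 were not called, with a median of 0.15. The shares of 22.2% higher and 11.1% lower lay near the 13.1% and 9.30% of all genes tested, and are no result about the list. Stc2, a secreted glycoprotein, and Nupr1, a stress-responsive regulator, were higher in colon by 2.45 (SE 0.23, limma adjusted p = 2.2e-05) and 1.89 (SE 0.19, limma adjusted p = 3.44e-05). Atf4, the transcription factor of that response, was the lower one (log2 fold change -1.03, SE 0.29, limma adjusted p = 0.0276), and its call was lost without colon array 1 or 4 or without small-intestinal array 2, 3 or 4 (adjusted p from 0.0666 to 0.0800).

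**Figure D4:**
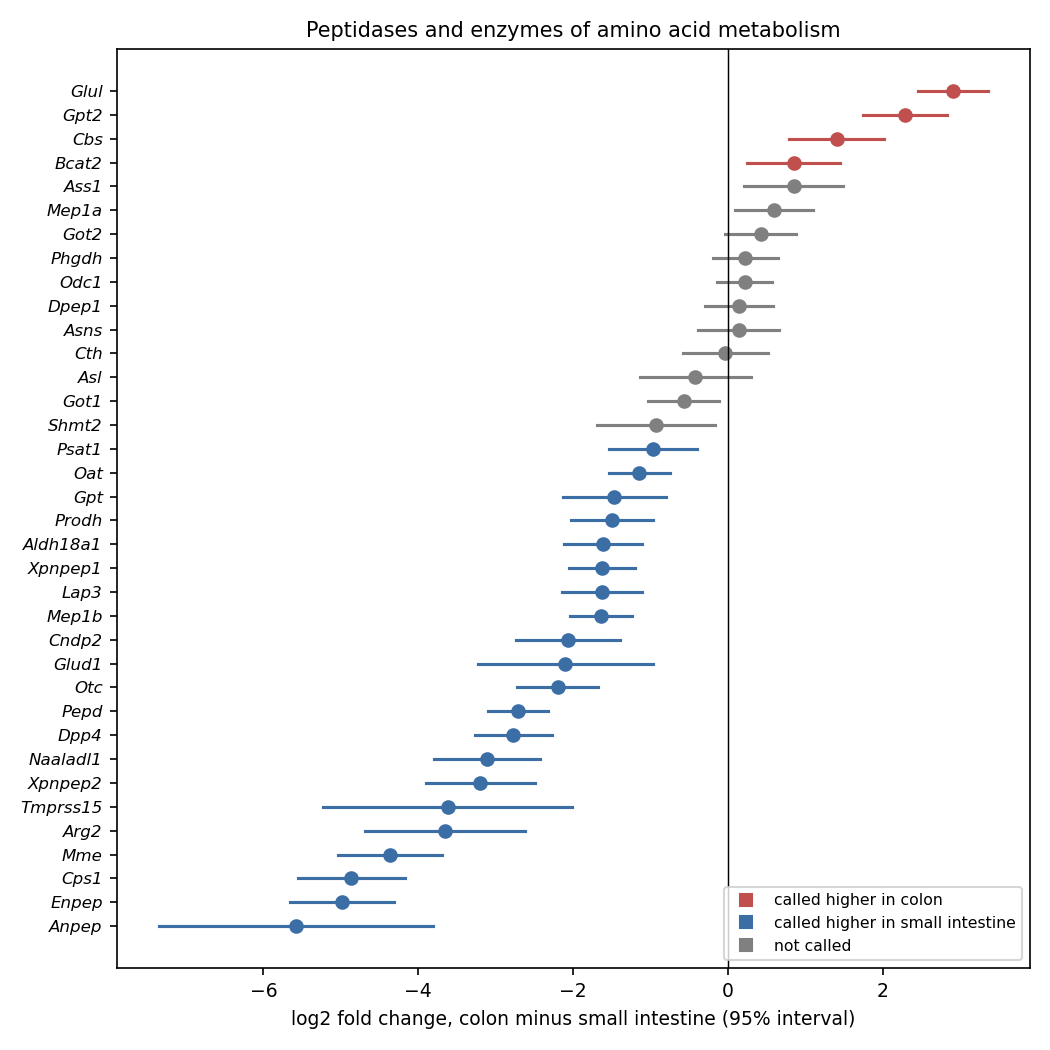
Log2 fold change, colon minus small intestine, with its 95% limma interval (horizontal axis) for 14 peptidases and 22 enzymes of amino acid metabolism. Anpep, Enpep and Cps1 lie farthest to the left and Glul and Gpt2 farthest to the right; the points of Mme, Lap3 and Cbs rest on 1 segment at the floor.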

How the data were processed

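Sorted goblet cell RNA of 4 colon and 4 small-intestinal samples was labelled with biotin and hybridised to an Illumina array, per the labels. The deposited signal table holds, per the file headers and its values, mean intensity per probe and array, neither background-subtracted nor scaled, with a detection p-value. Array means were 386 to 558 units, and 12447 to 13922 probes were above background (detection p below 0.05). 1 corrupted cell, of no transporter probe, was restored from the line that links it to the authors' processed values. That deposited table of processed intensity was a straight line of each array's signals, with 141 to 163 units subtracted, 1 common mean and medians of 22.5 to 32.6, and served as an alternative. The scanner software is not given in the sources used here.

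Signals were background-corrected with normexp from the detection p-values (offset 16), quantile-normalized and log2-transformed (neqc, limma 3.58.1, R 4.3.3). Platform names were updated by Entrez identifier for 23962 probes and by accession for 9. 7 kept the platform's name and 1719 had none. Probes above background on at least 4 arrays, 13618 in all, were fitted with lmFit and eBayes, two-sided, and called at a Benjamini-Hochberg adjusted p below 0.05. Each gene was read from its tested probe of highest mean. Where no array of a segment was above background, a bound is given from the lowest value above background on each array (5.28 to 5.61). On simulated arrays with 13618 probes, 51 of 100 probes changed 2-fold and 92 of 100 changed 4-fold were recovered, with 4 false calls among 147. The changed probes were drawn from those with a mean log2 value above 7. The noise was independent between probes and its SD was capped. These rates therefore do not describe dimmer or more variable probes. Python 3.11.15, pandas 2.3.3 and matplotlib 3.10.9 were also used.

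The transporters, gene lists, tests and motifs were chosen with earlier results of these data known, as were the alternatives. These changed the background correction, scaling, filter, probe choice, variance prior and array weights, added the replicate number as a block, or left out arrays, and the closing section gives their effect. All transporters are named, with up to 2 called genes that rose most and 2 that fell most from each other list. The number of arrays limits the precision of each value.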

Additional observations from a re-analysis of the deposited data

Results flagged for a closer look

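Among 30 sets of 4 values, 1 per transporter probe and segment, 3 held a value far from the other 3 by Dixon's criterion, which chance meets in about 1 of 20 sets. Slc1a1 on colon array 2 was at 10.30, with the next colon value at 9.48. Slc7a15 on small-intestinal array 2 was at 10.86 by its brightest probe, with the next value at 11.44. The second Slc7a15 probe on colon array 4 was at 5.18, with the next at 4.62, and none of these colon values was above background. Colon array 4 also held the highest colon value of the brightest Slc7a15 probe, at 7.74.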

How the results depend on the processing

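The direction of each of the 9 transporter genes held under every alternative that measured it, and their calls held too, except that of Slc1a1 without colon array 4 and without colon arrays 1 and 4. The number of called transporter genes was 8 or 9 under 19 of 20 alternatives, and 5 where each probe had to be above background on all 8 arrays, since the other 4 genes were then not tested. The log2 fold change of Slc6a14 ranged from 4.35 without background correction to 7.53 with the authors' processed values, and that of Slc7a8 from -1.53 to -4.17 under the same settings. The same-numbered samples did not deviate together (correlations 0.07, 0.25, -0.18 and 0.05), so the replicate numbers were not taken as pairs. With the replicate block, 2627 probes were called against 2919, and the 9 transporter genes stayed called. The count of called probes was 1795 without scaling between arrays (744 with colon on top and 1051 with small intestine on top, against 1580 and 1339), 5069 with array weights and 1748 without colon arrays 1 and 4. Without scaling, the median log2 fold change of all genes moved to -0.14. Of the other carriers, 5 were called without colon arrays 1 and 4, against 9. The difference between Slc7a7 and Slc3a2 turned to 0.0387 without colon arrays 1 and 4 and ranged from -0.32 to 0.0410 on leaving out 1 array, positive at 0.0340 without colon array 1 and at 0.0410 without small-intestinal array 4. The difference between Slc7a8 and Slc3a2 was -1.55, but -0.09 without background correction, -0.73 with a normexp offset of 50 and -2.23 with the authors' processed values, none of which passed after adjustment. The cause of these shifts was not tested. The lists of peptidases, partners, metabolism and shortage genes were recounted without colon arrays 1 and 4 after the data were seen, with 12, 3, 12 and 2 called, against 12, 3, 13 and 3.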
